A study of Danio rerio with 18 samples.

Results

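The data described here are 6 of the 18 arrays of a zebrafish heart study: 3 arrays of tnnt2 morphant embryos at 48 hours post fertilisation (hpf) and 3 at 36 hpf. They were chosen by their labels alone, as the arrays of embryos injected at the one-cell stage with a morpholino antisense to tnnt2, the gene of cardiac troponin T. A morpholino is a synthetic antisense oligomer that blocks translation or splicing of its target RNA without changing the genome. All embryos were of the AB wild type strain, were kept in E3 medium and were taken whole for total RNA. The matching control arrays, 3 at each time, carry wild type AB in their titles, while the treatment text names a control morpholino. That text also gives 32 hours for the first collection, where the titles give 36; the titles were followed. Each group is a set of 3 arrays of groups of embryos that held equal numbers from each parent pair. Nothing in the labels says that the 3 came from separate clutches or days, so the p-values measure the spread between these samples.

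Cardiac troponin T is the thin filament protein that ties troponin to tropomyosin, and without it the heart of a zebrafish embryo does not beat. Zebrafish embryos of this age take up oxygen by diffusion, so a morphant without circulation goes on developing. The interval covered here is the one in which, in a normal embryo, the neural retina leaves the cell cycle in waves, neurons mature, the trunk muscle is already contracting, the skeleton and gut begin to form and hatching is prepared. The comparison asks what changes over these 12 hours in embryos whose heart was targeted throughout.

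Expression was measured as 1 value per probe set, on a log2 scale, by a probe-level model called mmgMOS. Values were quantile normalised over all 18 arrays, and 6 group means were fitted together with limma. Of 15502 probe sets, 11626 had a mean over the 18 arrays of at least 0.62, the 25th percentile, and were tested. A call means an adjusted p (Benjamini-Hochberg over those 11626) under 0.05. A difference of 1 on the log2 scale is a doubling, and no fold is given where a group mean lay under 0.62. A gene with several probe sets is represented by the brightest of them. Gene names came from the deposited descriptions and identifiers and covered 2371 of the tested probe sets, or 2014 genes, so most of the array is unnamed here. The material is bulk RNA of whole embryos, in which fewer cells of a type and less RNA per cell cannot be told apart.

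The 6 morphant arrays were alike within each time. Their correlations over the tested probe sets were 0.947 to 0.962 within 36 hpf and 0.951 to 0.961 within 48 hpf, against 0.867 to 0.904 between the times. Before normalisation the array medians were 2.72, 3.01 and 3.33 at 36 hpf and 3.86, 2.79 and 2.71 at 48 hpf, so that array 1 of 48 hpf was the brightest. Of the control arrays, array 1 of 36 hpf stood apart, with a deposited median of 1.48 and a correlation of at most 0.837 with the other arrays of its group. It enters the morphant comparison through the normalisation, the filter and the shared estimate of spread. The control changes hold it directly, as part of the 36 hpf mean.

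Between 36 and 48 hpf, 1824 probe sets changed in the morphants, or 15.7% of those tested. The changes were nearly balanced, with 929 higher at 48 hpf (7.99% of those tested) and 895 lower (7.7%). At an unadjusted p under 0.05 there were 3511. The median size of a called difference was 1.07 on the log2 scale. In all, 510 probe sets rose and 498 fell by more than 1 unit, and 86 rose and 144 fell by more than 2. In 1806 of the 1824 the 3 arrays of one time lay all on one side of the 3 of the other, as they did in 45.3% of all probe sets tested. The number called depended on the fit: it was 3424 with the 6 morphant arrays fitted alone, 3948 with array weights and 74 on the values as deposited. Without array 1 of the 36 hpf controls, which stood apart, it was 2611. Leaving out 1 morphant array gave 977 to 1337, the lowest of these without array 2 of 48 hpf; it was 1007 without array 1 and 1063 without array 2 of 36 hpf, and 1071 without array 3 of 48 hpf. Among named genes, 161 rose (7.99%) and 190 fell (9.43%), and these shares are the background for the 40 gene lists below. In controls 11% of all probe sets tested were called higher and 11.6% lower, the background for control counts on the lists. The genes of the lists were chosen with earlier results of these data known, so shares above the background are descriptions only. Over all 40 lists together, 12.1% of genes were called higher and 13.6% lower. The call of a gene named below, at its brightest probe set, held with each of the 6 morphant arrays left out in turn and with each array centred on its median in place of quantile normalisation, unless a paragraph that names it says otherwise.

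The targeted gene itself was measured by 1 probe set. Values of tnnt2a were 2.5, 1.59 and 1.95 at 36 hpf and 3.26, 3.4 and 2.98 at 48 hpf. All 3 later arrays lay above the 3 earlier ones, and in 45.3% of all probe sets tested the times did not overlap. The difference did not pass the test (log2 difference 1.2 ± 0.47 SE, adjusted p = 0.0941). This depended on the fit, and 4 of 15 alternatives gave a call. They were the 6 morphant arrays alone, array weights, standard errors as weights, and the fit without array 1 of the 36 hpf controls. Over the alternatives its adjusted p ran from 0.00536 to 0.641. Controls gave a difference of 1.21 (adjusted p = 0.0743) over the same interval. A morpholino can block a protein while its transcript persists, so these values are not a check of the injection.

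**Figure D1:**
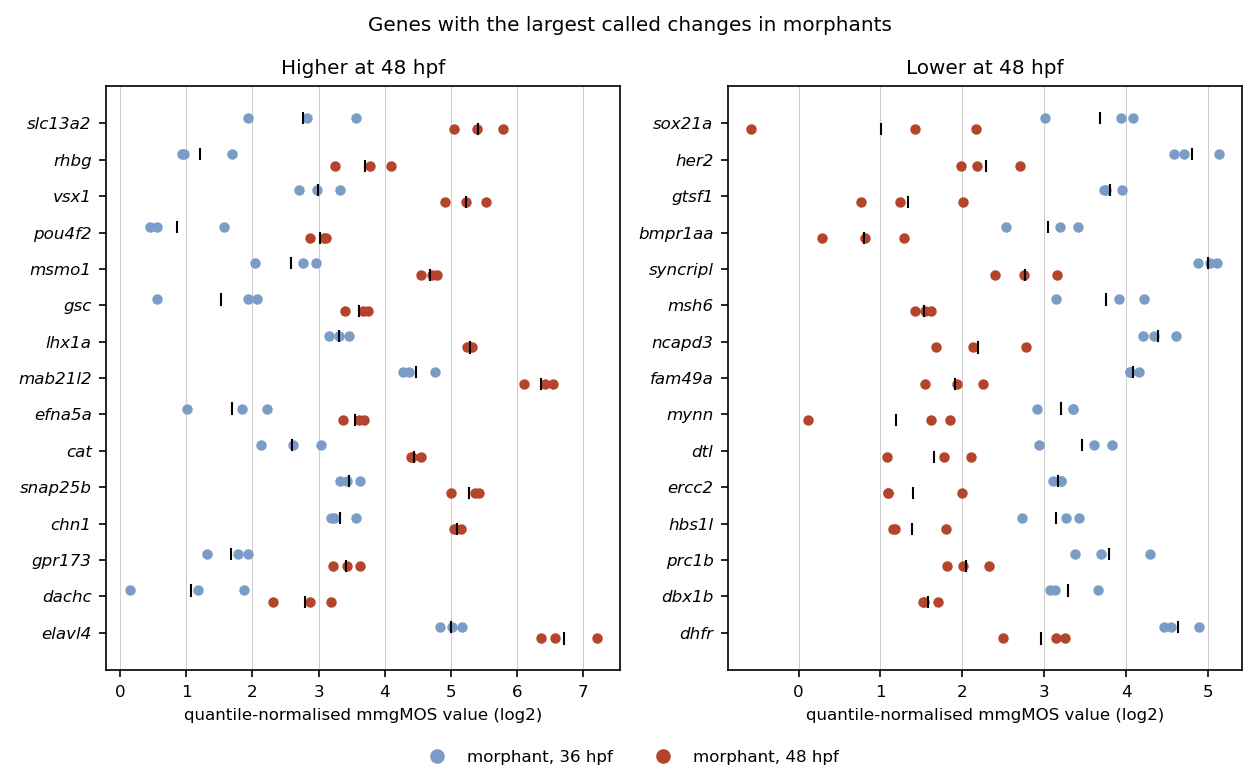
Normalised values (log2, horizontal axis) of the 15 named genes with the largest called rise (left) and the 15 with the largest called fall (right) whose group means both lay over the filter level; each point is 1 morphant array, blue at 36 hpf and red at 48 hpf, and the black bar is the mean of 3. Genes were also chosen so that the 3 points of one time do not overlap the 3 of the other, so this separation is no result.

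The largest rise of any named gene was in a photoreceptor factor, and other genes of differentiating retina rose with it. The transcription factor gene crx, which drives photoreceptor differentiation, had values of -5.95, -2.75 and -1.09 at 36 hpf and 4.17, 4.36 and 4.76 at 48 hpf. It lay far under the filter level at 36 hpf and well above the filter level on every array at 48 hpf (log2 difference 7.69 ± 0.75 SE, adjusted p = 2.73e-06). Its relative otx5, also expressed in photoreceptors and the pineal organ, had values of -0.33, -0.33 and -3.44 at 36 hpf and 2.55, 2.91 and 2.6 at 48 hpf (log2 difference 4.05 ± 0.70 SE, adjusted p = 8.10e-04). The bipolar cell gene vsx1 read 2.7, 3.32 and 2.97 at 36 hpf and 4.91, 5.23 and 5.53 at 48 hpf. It rose 4.68-fold (log2 difference 2.23 ± 0.19 SE, adjusted p = 7.64e-07). A further factor, pou4f2, which marks retinal ganglion cells, rose by 2.16 (adjusted p = 0.00285), with values of 0.56, 0.46 and 1.57 at 36 hpf and 2.86, 3.11 and 3.09 at 48 hpf.

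Among retina genes that fell was an early eye gene. The eye field factor rx1 fell 2.53-fold, from 3.15 to 1.81 (adjusted p = 0.0188). Of 19 tested genes on a list of photoreceptor and retina genes, 6 rose (31.6% against 7.99% of all named genes) and 2 fell (10.5% against 9.43%); the remaining rises were neurod1, a differentiation factor, and the blue opsin gene opn1sw2, which rose by 1.2 (adjusted p = 0.0166) and was named after its values were seen. The list's median difference was 0.019, beside -0.039 for all named genes; with median centring it was -0.044. The ultraviolet opsin gene opn1sw1 had values of -1.39, -0.79 and -0.71 at 36 hpf and 0.17, 1.58 and 0.38 at 48 hpf and did not pass the test (adjusted p = 0.114). Leaving out 1 array ended the call of rx1 (lost in 4 of 6, adjusted p up to 0.0911 without array 1 of 48 hpf) and opn1sw2 (lost in 3 of 6, adjusted p up to 0.0845 without array 2 of 48 hpf). The same list had 6 genes called higher and none lower in controls, where 11% of all probe sets tested were called higher and 11.6% lower.

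Several genes of maturing neurons rose. On a list of 17 tested genes of neurons and synapses, 7 rose, none fell and 10 were not called (41.2% higher, against 7.99% of named genes), 15 had a positive difference, and the median was 0.90. Values of snap25b, a synaptic vesicle fusion protein, were 3.32, 3.43 and 3.62 at 36 hpf and 5.01, 5.37 and 5.43 at 48 hpf. That was a 3.52-fold rise with a narrow spread in both groups (log2 difference 1.82 ± 0.17 SE, adjusted p = 1.60e-06). The RNA-binding protein gene elavl4, a marker of postmitotic neurons, had values of 4.83, 5.02 and 5.16 at 36 hpf and 6.36, 7.21 and 6.58 at 48 hpf, a rise of 1.71 (adjusted p = 0.00543). Others that rose were atp1a3a, the neuronal sodium pump subunit, by 1.33 (adjusted p = 1.61e-04), its partner atp1b2a by 1.29 (adjusted p = 0.0253), the glutamate receptor subunit gria2a by 1.7 (adjusted p = 0.0355) and the growth cone protein gap43 by 0.90 (adjusted p = 0.00276). Without 1 array the call was lost for atp1b2a (lost in 4 of 6, adjusted p up to 0.0839 without array 3 of 48 hpf) and gria2a (lost in 3 of 6, adjusted p up to 0.192 without array 1 of 36 hpf). In controls, 8 of the 17 rose and 1 fell, with a median of 0.80, where 11% of all probe sets tested rose and 11.6% fell.

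Neural progenitor and neurogenesis genes changed in both directions. Of 39 tested, 5 rose (12.8%) and 8 fell (20.5%, against 9.43% of named genes), 26 were not called, and the median was -0.21, with 29 negative. Among those that fell were her2, a Hes family repressor of the Notch pathway, with values of 4.59, 4.7 and 5.13 at 36 hpf and 2.18, 2.7 and 1.98 at 48 hpf. That was a fall of 5.72-fold (log2 difference -2.52 ± 0.39 SE, adjusted p = 3.39e-04). The Notch ligand gene deltaD, listed as dldh and formerly dld, went from 6.03 to 4.79, a fall of 2.36-fold (adjusted p = 6.34e-04). The proneural gene ascl1b fell 2.2-fold (adjusted p = 0.00161) and another Hes relative, her9, fell 2-fold (adjusted p = 0.00436). Outside the list, the progenitor factors sox21a and dbx1b fell by 2.67 ± 0.70 (adjusted p = 0.0156) and 1.7 ± 0.52 (adjusted p = 0.0321) on the log2 scale.

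Of the 5 listed genes that rose, the largest changes were in lhx1a and mab21l2, and fabp7a, a gene of radial glia, was also among them. Values of lhx1a, a LIM homeobox gene of interneurons and of the pronephros, were 3.3, 3.46 and 3.15 at 36 hpf and 5.25, 5.3 and 5.32 at 48 hpf, and the gene rose 3.95-fold (log2 difference 1.98 ± 0.20 SE, adjusted p = 4.67e-06). The eye and tectum gene mab21l2 had values of 4.27, 4.37 and 4.76 at 36 hpf and 6.11, 6.54 and 6.42 at 48 hpf, a 3.71-fold rise (log2 difference 1.89 ± 0.16 SE, adjusted p = 7.31e-07). Both belong to the largest rises, which were picked for arrays that did not overlap between the times, so that separation is no result. The differentiation factor neurod1 rose 2.02-fold, from a mean of 4.3 to 5.32 (adjusted p = 8.32e-04). With 1 array left out, the test was no longer passed by sox21a (lost in 3 of 6, adjusted p up to 0.0967 without array 2 of 48 hpf), dbx1b (lost in 6 of 6, adjusted p up to 0.125 without array 1 of 36 hpf) and fabp7a (lost in 2 of 6, adjusted p up to 0.0939 without array 1 of 36 hpf). Median centring ended the call of fabp7a (adjusted p = 0.0615).

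DNA replication and cell division genes held more falls than any other of the 40 gene lists. Of 38 tested genes, 24 fell and none rose, so that 63.2% fell against 9.43% of all named genes, and 37 differences were negative, with a median of -0.82. In controls 26 of the 38 fell, with a median of -0.77, where 11.6% of all probe sets tested fell. Values of dhfr, which supplies the folate cofactor for thymidylate, were 4.47, 4.89 and 4.55 at 36 hpf and 3.25, 3.15 and 2.49 at 48 hpf. It fell 3.18-fold (log2 difference -1.67 ± 0.22 SE, adjusted p = 7.90e-05), more than any other called member. Thymidylate synthase, tyms, fell 2.38-fold (adjusted p = 0.00573), the primase subunit prim1 2.21-fold (adjusted p = 6.65e-04), the polymerase delta subunit pold2 2.17-fold (adjusted p = 0.0462) and the flap endonuclease fen1 2.1-fold (adjusted p = 0.00414). The mitotic kinase gene aurkb fell 2.08-fold (adjusted p = 0.00359). The replication clamp gene pcna, among the brightest of these, had values of 8.76, 8.71 and 8.93 at 36 hpf and 8.11, 8.06 and 8.15 at 48 hpf, a 1.62-fold fall (log2 difference -0.70 ± 0.12 SE, adjusted p = 6.82e-04).

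Chromosome and repair genes off that list were among the largest falls of the named genes. The condensin II subunit ncapd3 had values of 4.21, 4.6 and 4.34 at 36 hpf and 2.77, 2.13 and 1.68 at 48 hpf, a fall of 4.56-fold (log2 difference -2.19 ± 0.29 SE, adjusted p = 8.01e-05). The mismatch repair gene msh6 fell 4.7-fold (adjusted p = 0.00277), the replication licensing regulator dtl 3.48-fold (adjusted p = 0.00833), the midzone microtubule bundler prc1b 3.33-fold (adjusted p = 0.00746) and the helicase of nucleotide excision repair ercc2 3.43-fold (adjusted p = 0.00622). The recombination gene rad54l went from a mean of 2.74 to -0.21, under the filter level (adjusted p = 0.0156). With median centring 11 of the 38 listed genes fell, with a median of -0.83, beside 618 of all 11626 probe sets tested. On the values as deposited none was called, with a median of -0.73 where that of all probe sets was 0.10. Fits without 1 array did not all keep the call for pold2 (lost in 6 of 6, adjusted p up to 0.156 without array 3 of 48 hpf), dtl (lost in 1 of 6, adjusted p up to 0.0513 without array 2 of 48 hpf) and rad54l (lost in 3 of 6, adjusted p up to 0.0889 without array 2 of 48 hpf). Lost with median centring were the calls of pold2, aurkb and pcna, with adjusted p of 0.0523 to 0.39.

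Some genes of protein breakdown and RNA processing fell. Of 25 tested proteasome and ubiquitin genes, 7 fell (28%, against 9.43%) and none rose, with a median of -0.31. The proteasome subunit gene psmb3 had values of 7.57, 7.53 and 7.59 at 36 hpf and 6.81, 6.78 and 7.06 at 48 hpf (log2 difference -0.68 ± 0.093 SE, adjusted p = 1.07e-04), and psmc2, an ATPase of the regulatory particle, fell 1.46-fold (adjusted p = 0.0023). Of 13 genes of RNA processing and translation, 2 fell (15.4%, against 9.43%), namely the nucleolar genes gar1, by 0.89 (adjusted p = 4.45e-04), and fbl, by 0.46 (adjusted p = 0.0323), on the log2 scale. The differences of cytosolic ribosomal proteins ran from -0.20 to 0.21 over 20 genes and only rpl13a fell, by 0.20 (adjusted p = 0.0272). Their median of -0.090 was 0.22 with median centring, when all 20 differences were positive and that of rpl13a was 0.097, so no direction is given for them. The proteasome list had 1 call with median centring and kept a negative median (-0.37). An adjusted p under 0.05 was not kept with 1 array left out for fbl (lost in 5 of 6, adjusted p up to 0.155 without array 1 of 36 hpf) and rpl13a (lost in 5 of 6, adjusted p up to 0.0945 without array 2 of 48 hpf). Not called with median centring were psmb3, psmc2, fbl and rpl13a, with adjusted p of 0.12 to 0.913.

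**Figure D2:**
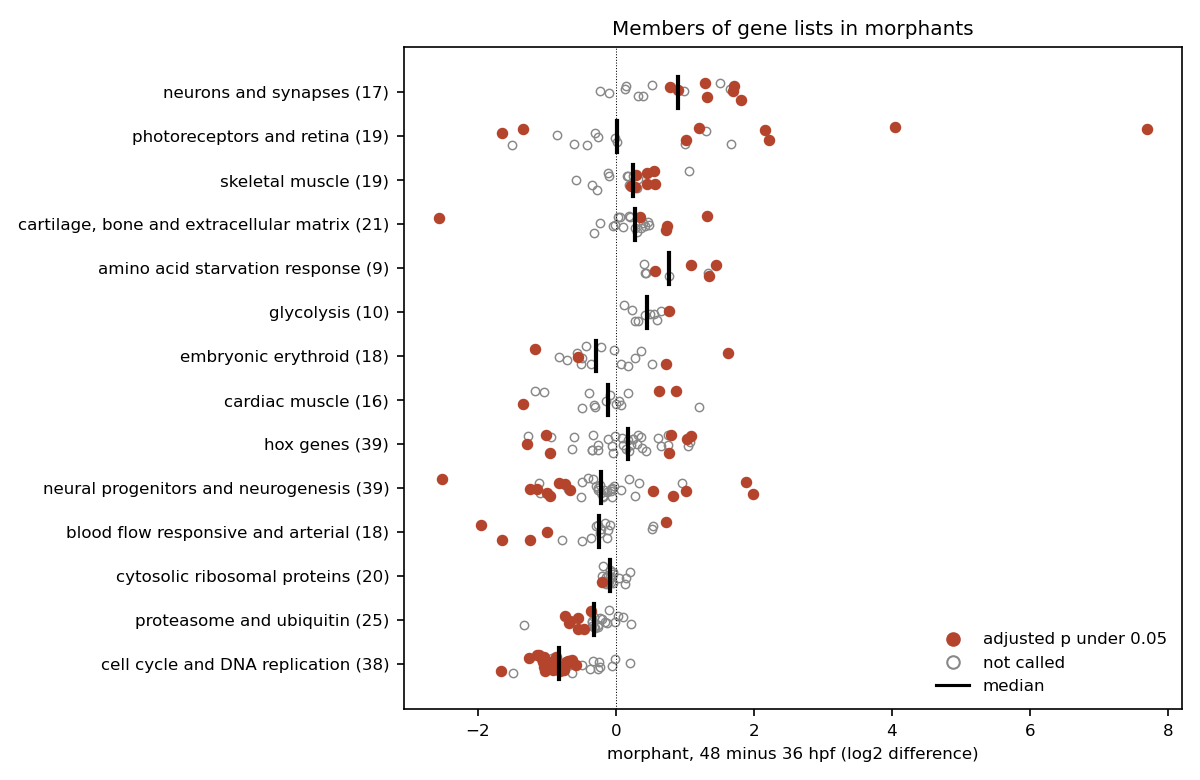
Difference between 48 and 36 hpf in morphants (log2, horizontal axis) for every tested gene of 14 of the 40 lists, with the number tested in parentheses; filled red points passed the test, open points did not, and the bar is the list's median. Cell cycle genes lie left of 0 in 37 of 38 cases, and neuron and synapse genes lie right of 0 in 15 of 17.

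Some skeletal muscle genes rose. Of 19 tested, 7 rose (36.8%, against 7.99%), none fell and 12 were not called, of which 5 had negative differences; the list's median was 0.25. The fast troponin T gene tnnt3b had values of 9.0, 9.22 and 9.26 at 36 hpf and 9.66, 9.74 and 9.78 at 48 hpf, a 1.48-fold rise (log2 difference 0.56 ± 0.092 SE, adjusted p = 5.54e-04). The fast myosin light chain gene mylz3 had values of 9.45, 9.47 and 9.54 at 36 hpf and 9.9, 9.98 and 9.96 at 48 hpf, a 1.37-fold rise (log2 difference 0.46 ± 0.067 SE, adjusted p = 1.89e-04), and creatine kinase, ckma, rose 1.37-fold (adjusted p = 1.64e-04). These changes were under 1 log2 unit. The groups of 3 arrays did not overlap, as in 45.3% of all probe sets tested and in 1806 of the 1824 called. None of the 7 was called with median centring, when the list's median was 0.51. Of the myogenic regulators, myog, which drives myoblast fusion, rose 2.19-fold (adjusted p = 0.0104), and myod1 had a difference of 0.37 ± 0.31 (adjusted p = 0.45). Leaving out 1 array ended the call of myog (lost in 1 of 6, adjusted p up to 0.0642 without array 2 of 36 hpf). Median centring ended the call of tnnt3b, mylz3 and ckma, with adjusted p of 0.15 to 0.287. In controls 10 of the 19 muscle genes rose and none fell, where 11% of all probe sets tested rose and 11.6% fell.

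Heart genes in the morphants showed no common direction. Of 16 tested, 2 rose and 1 fell (12.5% and 6.25%, against 7.99% and 9.43%), with a median of -0.11, so the share called was near the background. The cardiac myosin light chain gene myl7 had values of 5.5, 5.43 and 5.52 at 36 hpf and 5.4, 5.37 and 5.43 at 48 hpf, overlapping between the times (adjusted p = 0.768). Ventricular myosin heavy chain, listed as myh7, rose 1.84-fold, with values of 2.85, 3.18 and 2.91 at 36 hpf and 3.78, 3.96 and 3.83 at 48 hpf (adjusted p = 0.0311). The cardiac and fin mesenchyme factor hand2 rose 1.55-fold (adjusted p = 0.041), and the endoderm and heart factor gata5 fell 2.53-fold (adjusted p = 0.0479). The titin gene ttn.2 gave 0.18 ± 0.48 in morphants (adjusted p = 0.84) and 1.91 (adjusted p = 0.00878) in controls, and the difference between the changes did not pass the test (adjusted p = 0.724). Without 1 array the call was lost for myh7 (lost in 5 of 6, adjusted p up to 0.104 without array 1 of 36 hpf), hand2 (lost in 5 of 6, adjusted p up to 0.158 without array 1 of 36 hpf) and gata5 (lost in 6 of 6, adjusted p up to 0.166 without array 2 of 48 hpf). Median-centred values gave no call for hand2 and gata5, with adjusted p of 0.0637 to 0.077.

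Among vascular genes, 5 were called. Of 18 tested genes of arterial identity and flow response, 4 fell (22.2%, against 9.43%) and 1 rose (5.56%, against 7.99%), with a median of -0.24. The Notch target hey2, an arterial factor, went from a mean of 2.15 to 0.50, under the filter level (adjusted p = 0.0491). The venous receptor gene ephb4a went from 1.58 to -0.37, also under it (adjusted p = 0.0252). The ligand gene jag1b rose 1.65-fold (adjusted p = 0.0332). The other falls were her9 and dldh, described above, which are also neural genes. Flow-responsive klf2a had values of 2.71, 2.58 and 2.23 at 36 hpf and 3.01, 2.66 and 3.42 at 48 hpf, and the groups overlapped (adjusted p = 0.137). Of 4 endothelial genes tested none was called; fli1 gave 0.41 ± 0.40 (adjusted p = 0.525). With 1 array left out, the test was no longer passed by hey2 (lost in 6 of 6, adjusted p up to 0.21 without array 1 of 36 hpf), ephb4a (lost in 5 of 6, adjusted p up to 0.112 without array 3 of 48 hpf) and jag1b (lost in 5 of 6, adjusted p up to 0.155 without array 1 of 36 hpf). With median centring the test was no longer passed by hey2 and jag1b, with adjusted p of 0.053 to 0.0556.

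Within the red cell lineage, globin genes moved in opposite directions. Values of hbbe2, an embryonic beta globin, were 6.02, 5.81 and 6.21 at 36 hpf and 7.69, 7.59 and 7.63 at 48 hpf, a 3.09-fold rise (log2 difference 1.63 ± 0.14 SE, adjusted p = 6.01e-07). Another, hbbe3, had values of 9.18, 9.38 and 9.21 at 36 hpf and 8.68, 8.62 and 8.82 at 48 hpf, a 1.47-fold fall (log2 difference -0.55 ± 0.15 SE, adjusted p = 0.0175). Globin genes resemble each other in sequence, and probe sets may share signal between them, which was not tested. Red cell carbonic anhydrase, cahz, rose 1.65-fold (adjusted p = 0.0159), and the haem synthesis enzyme gene urod fell 2.24-fold (adjusted p = 8.48e-04). Of 18 erythroid genes tested, 2 rose and 2 fell (11.1% each), with a median of -0.29. Of the myeloid genes, 1 rose (9.09%) and 2 fell (18.2%), against 7.99% and 9.43% of named genes. Among 11 myeloid genes, lysozyme, lyz, rose 1.9-fold, with values of 5.9, 5.76 and 5.79 at 36 hpf and 6.82, 6.59 and 6.82 at 48 hpf (adjusted p = 8.02e-05), while the myeloid factor cebp1 fell by 1.5 (adjusted p = 0.0289) and apoeb, an apolipoprotein of microglia and yolk, by 0.40 (adjusted p = 0.0149) on the log2 scale. Fits without 1 array did not all keep the call for hbbe3 (lost in 2 of 6, adjusted p up to 0.0781 without array 2 of 36 hpf), cahz (lost in 3 of 6, adjusted p up to 0.0856 without array 2 of 36 hpf), cebp1 (lost in 4 of 6, adjusted p up to 0.173 without array 2 of 48 hpf) and apoeb (lost in 2 of 6, adjusted p up to 0.0754 without array 3 of 48 hpf). Lost with median centring were the calls of hbbe3, cahz and apoeb, with adjusted p of 0.0631 to 0.722.

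At their brightest probe sets, skin genes gave a single very large change. The keratin gene krt15 had values of -1.24, -1.85 and -1.37 at 36 hpf and 3.68, 3.47 and 3.93 at 48 hpf, from under the filter level on every array to well above it (log2 difference 5.18 ± 0.43 SE, adjusted p = 5.52e-07). Another skin keratin, krt5, rose 1.57-fold (adjusted p = 0.0073), and krt18a.1, of simple epithelia, fell 1.33-fold (adjusted p = 0.0205). The brightest probe set of krt4, a keratin of the surface layer, had means of 10.14 and 10.18 (adjusted p = 0.785), and a second bright one had means of 9.72 and 9.74, while a pair of dim probe sets of the same name fell by 0.94 and 4.01. Of 19 skin genes 2 rose and 1 fell (10.5% and 5.26%), so the list as a whole was near the background. An adjusted p under 0.05 was not kept with 1 array left out for krt18a.1 (lost in 4 of 6, adjusted p up to 0.0984 without array 1 of 36 hpf). Not called with median centring were krt5 and krt18a.1, with adjusted p of 0.132 to 0.423.

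The hatching gland, a transient gland that softens the egg envelope, was represented mainly by the cathepsin gene ctslb. Its brightest probe set read 10.18, 10.18 and 10.18 at 36 hpf and 9.49, 9.15 and 8.9 at 48 hpf and fell (log2 difference -1.0 ± 0.27 SE, adjusted p = 0.0178). At this end of the scale quantile normalisation gives probe sets of equal rank equal values, so neither the likeness of the 36 hpf arrays nor an exact fold can be read from it. The 9 probe sets of that name disagreed: 3 fell, 1 rose and 5 were not called, so the direction of the gene is uncertain. Myelin proteolipid plp1a, with 10 probe sets, was as uneven, with 4 called higher and 2 lower, and its brightest had means of 9.67 and 9.54 (adjusted p = 0.202). Among ion-transporting cells, the sodium pump subunit atp1a1a.3 fell 2.27-fold (adjusted p = 0.0175) and 4 other ionocyte genes were not called. That was a fall in 20% of the ionocyte list, against 9.43% of named genes. Leaving out 1 array ended the call of ctslb (lost in 4 of 6, adjusted p up to 0.0819 without array 3 of 48 hpf) and atp1a1a.3 (lost in 4 of 6, adjusted p up to 0.0978 without array 3 of 48 hpf). Median centring ended the call of ctslb (adjusted p = 0.231).

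Several cartilage and matrix genes rose. Of 21 cartilage, bone and matrix genes, 4 rose (19%, against 7.99% of named genes) and 1 fell (4.76%, against 9.43%). There were 16 positive differences, and the median was 0.27. In controls 9 of the 21 rose and 2 fell, with a median of 0.49, where 11% of all probe sets tested rose and 11.6% fell. The cartilage glycoprotein gene cnmd had values of 5.02, 4.83 and 4.83 at 36 hpf and 6.44, 6.21 and 5.98 at 48 hpf, a 2.49-fold rise (log2 difference 1.32 ± 0.18 SE, adjusted p = 1.07e-04), and its second probe set rose too. Collagen I genes rose by 0.74 (adjusted p = 9.57e-04) for col1a1b and 0.34 (adjusted p = 0.029) for col1a1a on the log2 scale. Cartilage collagen, col2a1a, had values of 8.15, 8.25 and 8.41 at 36 hpf and 8.27, 8.25 and 8.36 at 48 hpf in morphants (adjusted p = 0.962) and changed by 0.76 (adjusted p = 0.0373) in controls. Those values do not show that the morphants differed, since no gene on this list passed the test of the difference between the changes. The mesenchyme factor twist1a went from a mean of 2.14 to -0.42, under the filter level (adjusted p = 0.0309). The neural crest transcript crestin had values of 4.1, 3.53 and 3.93 at 36 hpf and 1.2, -1.89 and 2.43 at 48 hpf, with a 48 hpf mean under the filter level (adjusted p = 0.0256). Of 7 pigment cell genes 2 fell (28.6%, against 9.43% of named genes), none rose and 4 had positive differences, with a median of 0.22. The pigment cell factor mitfa fell 2.3-fold (adjusted p = 0.0271), and the purine synthesis gene gart, used by pigment cells and dividing cells alike, fell 2.42-fold (adjusted p = 0.00682). The floor plate morphogen gene shha fell 1.62-fold (adjusted p = 0.016). Without 1 array the call was lost for col1a1a (lost in 5 of 6, adjusted p up to 0.121 without array 2 of 48 hpf), twist1a (lost in 6 of 6, adjusted p up to 0.0972 without array 2 of 48 hpf), crestin (lost in 4 of 6, adjusted p up to 0.152 without array 2 of 48 hpf), mitfa (lost in 4 of 6, adjusted p up to 0.14 without array 2 of 48 hpf) and shha (lost in 3 of 6, adjusted p up to 0.0761 without array 2 of 48 hpf). Median-centred values gave no call for col1a1b, col1a1a and gart, with adjusted p of 0.0518 to 0.428.

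Few gut and liver genes were called. Of 19 gut and pancreas genes 3 rose and 2 fell (15.8% and 10.5%, against 7.99% and 9.43%), with a median of 0.35. The intestinal fatty acid binding protein gene fabp2 had values of 7.78, 7.56 and 7.55 at 36 hpf and 6.6, 6.36 and 6.38 at 48 hpf, a 2.27-fold fall with a narrow spread (log2 difference -1.19 ± 0.14 SE, adjusted p = 1.71e-05). The claudin genes cldn15la and cldn3d, of epithelial junctions, rose by 1.54 (adjusted p = 0.0139) and 0.73 (adjusted p = 0.0308). The remaining rise was neurod1 and the remaining fall gata5, both given above, which are also neural and heart genes. On other lists, the claudin genes cldnb (0.16, adjusted p = 0.601) and cldnj (-0.31, adjusted p = 0.761) were not called. Among 20 liver and plasma genes, 2 rose and 2 fell (10% each, near the background): ceruloplasmin, cp, rose 1.85-fold (adjusted p = 0.0136) and the tyrosine breakdown enzyme gene hgd 2.29-fold (adjusted p = 0.00279), while hhex, a factor of early liver and endothelium, went from 2.23 to 0.35, under the filter level (adjusted p = 0.0307). The other fall was apoeb, given above. With 1 array left out, the test was no longer passed by cldn15la (lost in 2 of 6, adjusted p up to 0.08 without array 2 of 36 hpf), cldn3d (lost in 5 of 6, adjusted p up to 0.124 without array 2 of 36 hpf), cp (lost in 2 of 6, adjusted p up to 0.0674 without array 2 of 48 hpf) and hhex (lost in 6 of 6, adjusted p up to 0.126 without array 3 of 48 hpf). With median centring the test was no longer passed by cp (adjusted p = 0.0658).

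Several genes of the amino acid response rose. All 9 tested genes of the amino acid starvation response, which the kinase GCN2 and the factor ATF4 control, had positive differences, and 4 rose (44.4%, against 7.99%), with a median of 0.78. The amino acid transporter subunit slc3a2b had values of 4.52, 3.96 and 4.57 at 36 hpf and 5.64, 5.87 and 5.89 at 48 hpf, a 2.73-fold rise (log2 difference 1.45 ± 0.19 SE, adjusted p = 5.34e-05). The growth factor binding protein gene igfbp1a, also induced by low oxygen, rose 2.54-fold (adjusted p = 0.00217), the stress factor atf3 2.13-fold (adjusted p = 0.0188) and the serine synthesis enzyme gene psat1 1.49-fold (adjusted p = 0.0307). In controls 1 of the 9 rose and 1 fell, with a median of 0.25, where 11% of all probe sets tested rose and 11.6% fell. The gene that fell in controls was asns (-1.88, adjusted p = 0.0181), which changed by 0.78 in morphants (adjusted p = 0.356). Those values do not show that the morphants differed: no gene on the list passed the test of the difference, and for psat1, with -0.044 in controls, its adjusted p was 0.724. Fits without 1 array did not all keep the call for atf3 (lost in 4 of 6, adjusted p up to 0.0676 without array 3 of 36 hpf) and psat1 (lost in 6 of 6, adjusted p up to 0.0988 without array 2 of 36 hpf). Lost with median centring was the call of psat1 (adjusted p = 0.0529).

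Of 24 heat shock and chaperone genes, 2 rose and 1 fell (8.33% and 4.17%, against 7.99% and 9.43%), shares at or under the background. Those that rose were hspa5, which binds unfolded proteins in the endoplasmic reticulum, with values of 5.28, 5.28 and 5.81 at 36 hpf and 6.46, 6.58 and 6.34 at 48 hpf (log2 difference 1.0 ± 0.18 SE, adjusted p = 9.16e-04), and hsp90b1, a chaperone of the same compartment, up by 1.06 (adjusted p = 0.00334). The heat shock factor hsf1 fell 3.09-fold (adjusted p = 0.0369). Of 10 glycolysis genes 1 was called (10%, against 7.99%), namely pgk1 with 0.78 (adjusted p = 0.00323), and none was with median centring; the list's median was 0.46. None of 4 respiratory chain genes was called. The sterol synthesis gene msmo1 rose 4.29-fold, with values of 2.76, 2.95 and 2.04 at 36 hpf and 4.72, 4.78 and 4.55 at 48 hpf (adjusted p = 0.0155), and 3 other sterol genes were not called. That was a rise in 25% of the sterol list, against 7.99%. An adjusted p under 0.05 was not kept with 1 array left out for hsf1 (lost in 5 of 6, adjusted p up to 0.172 without array 2 of 48 hpf) and msmo1 (lost in 2 of 6, adjusted p up to 0.066 without array 3 of 36 hpf). Not called with median centring was pgk1 (adjusted p = 0.19).

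The antigen presentation genes b2m and mhc1uba rose from low levels. Beta-2-microglobulin, b2m, the light chain of class I molecules, had values of 0.28, 0.66 and 0.39 at 36 hpf and 2.62, 2.49 and 2.86 at 48 hpf (log2 difference 2.21 ± 0.48 SE, adjusted p = 0.00467), and the class I heavy chain gene mhc1uba had values of 1.75, 1.21 and 1.7 at 36 hpf and 2.98, 3.05 and 3.37 at 48 hpf (log2 difference 1.58 ± 0.35 SE, adjusted p = 0.00591). The cytokine signalling inhibitor socs3a rose 2.7-fold (adjusted p = 0.0197). These were the 3 rises among 9 immune genes tested (33.3%, against 7.99% of named genes), and 8 more on the array were too dim to test. None of the 9 was called lower. The list's median was 0.062, with 6 positive and 3 negative differences, the lowest of them -1.79. In controls none of the 9 rose and 2 fell, where 11% of all probe sets tested rose and 11.6% fell. No gene on the list passed the test of the difference between the changes. Of 39 Hox genes, which set position along the body axis, 4 rose and 3 fell (10.26% and 7.69%), shares near the background. The rises included hoxb5a (1.03, adjusted p = 6.82e-04), hoxb6b (0.80, adjusted p = 0.0088) and hoxb7a (1.09, adjusted p = 0.0431), and the falls were hoxb1b (-1.02, adjusted p = 0.00445), hoxd9a (-1.29, adjusted p = 0.0381) and hoxa11b (-0.95, adjusted p = 0.0316). The Wnt effector lef1 had values of 3.47, 3.3 and 3.51 at 36 hpf and 4.98, 4.74 and 4.95 at 48 hpf, a 2.75-fold rise (log2 difference 1.46 ± 0.17 SE, adjusted p = 2.23e-05). The Notch modifier lfng, used in somite segmentation, fell 1.68-fold (adjusted p = 0.00642). The vasopressin precursor gene avp rose 3.17-fold, with values of 1.2, 0.46 and 1.14 at 36 hpf and 2.22, 2.65 and 2.93 at 48 hpf (adjusted p = 0.011). Leaving out 1 array ended the call of socs3a (lost in 4 of 6, adjusted p up to 0.0969 without array 3 of 36 hpf), hoxb7a (lost in 5 of 6, adjusted p up to 0.159 without array 3 of 48 hpf), hoxd9a (lost in 5 of 6, adjusted p up to 0.169 without array 3 of 48 hpf), hoxa11b (lost in 4 of 6, adjusted p up to 0.129 without array 1 of 48 hpf) and avp (lost in 2 of 6, adjusted p up to 0.0554 without array 2 of 36 hpf). Median centring ended the call of hoxb7a and lfng, with adjusted p of 0.0508 to 0.0869.

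Several of the largest named changes lay on none of the lists. The highest among rises with both means over the filter level was slc13a2, a sodium and dicarboxylate cotransporter, with values of 2.82, 1.93 and 3.56 at 36 hpf and 5.04, 5.79 and 5.4 at 48 hpf, a 6.25-fold rise (log2 difference 2.64 ± 0.35 SE, adjusted p = 8.58e-05). The ammonia channel gene rhbg rose 5.68-fold (adjusted p = 0.00314), catalase, cat, 3.61-fold (adjusted p = 3.31e-05) and the homeobox gene gsc 4.24-fold (adjusted p = 0.00102). Genes of axon growth and signalling in this group were efna5a, an ephrin ligand (3.64-fold, adjusted p = 0.0189), and chn1, a Rac GTPase-activating protein (3.39-fold, adjusted p = 4.44e-04). The orphan receptor gene gpr173 rose 3.35-fold (adjusted p = 0.0013) and the dachshund family gene dachc 3.31-fold (adjusted p = 0.0081). From under the filter level rose diras1a, a Ras-like GTPase (2.88, adjusted p = 5.21e-04), and the neural adhesion molecule ncam2 (2.75, adjusted p = 0.0204). Without 1 array the call was lost for efna5a (lost in 3 of 6, adjusted p up to 0.096 without array 1 of 36 hpf), dachc (lost in 1 of 6, adjusted p up to 0.0523 without array 1 of 36 hpf) and ncam2 (lost in 4 of 6, adjusted p up to 0.0698 without array 1 of 48 hpf).

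Signalling and RNA-binding genes were among the largest falls outside the lists. The BMP type I receptor gene bmpr1aa had values of 2.53, 3.41 and 3.19 at 36 hpf and 1.29, 0.28 and 0.81 at 48 hpf, a 4.75-fold fall (log2 difference -2.25 ± 0.71 SE, adjusted p = 0.0389). The gene gtsf1, known in mouse and fly for its part in the piRNA pathway, fell 5.54-fold (adjusted p = 0.00337), and syncripl, of a family of RNA-binding proteins, 4.7-fold (adjusted p = 0.037). Also lower were hbs1l, a ribosome rescue GTPase (3.38-fold, adjusted p = 0.0214), the zinc finger gene mynn (4.03-fold, adjusted p = 0.00649) and fam49a (4.5-fold, adjusted p = 0.033). The Wnt pathway repressor tcf7l1a had values of 3.29, 3.04 and 2.96 at 36 hpf and 0.39, -1.0 and -0.65 at 48 hpf, and its later mean lay under the filter level (adjusted p = 0.0032). The later means of fgd and trpc4apb lay there too, and their differences were -3.57 (adjusted p = 7.14e-04) and -2.93 (adjusted p = 0.0129). With 1 array left out, the test was no longer passed by bmpr1aa (lost in 6 of 6, adjusted p up to 0.135 without array 2 of 48 hpf), syncripl (lost in 6 of 6, adjusted p up to 0.125 without array 2 of 48 hpf), hbs1l (lost in 4 of 6, adjusted p up to 0.0792 without array 2 of 48 hpf), fam49a (lost in 6 of 6, adjusted p up to 0.107 without array 3 of 48 hpf) and trpc4apb (lost in 2 of 6, adjusted p up to 0.0609 without array 3 of 48 hpf). With median centring the test was no longer passed by syncripl (adjusted p = 0.0548).

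The remaining lists held few calls. Of 2 lens genes the crystallin gene crybb1 rose (50%), and of 7 glial genes ednrba and fabp7a rose (28.6%) and glula fell (14.3%). Over all named genes the shares were 7.99% higher and 9.43% lower. Of 10 genes of fatty acid metabolism fabp7a rose (10%) and acadm fell (10%). The single rise among 5 hypoxia genes was igfbp1a (20%), that among 5 kidney genes lhx1a (20%) and that among 6 hormone genes avp (16.7%). Of 12 immediate early genes atf3 and socs3a rose (16.7%). Of 13 genes of somites and tail bud lef1 rose (7.69%), and dldh and lfng fell (15.4%). Nothing was called among 11 clock genes, 9 genes of fin and hatching-stage skin or 2 hair cell genes, and 1 of 7 genes of notochord and floor plate, shha, fell (14.3%). Fits without 1 array did not all keep the call for ednrba (lost in 4 of 6, adjusted p up to 0.197 without array 2 of 48 hpf), fabp7a (lost in 2 of 6, adjusted p up to 0.0939 without array 1 of 36 hpf), glula (lost in 2 of 6, adjusted p up to 0.0642 without array 1 of 36 hpf) and acadm (lost in 5 of 6, adjusted p up to 0.12 without array 1 of 48 hpf). Lost with median centring were the calls of crybb1, ednrba, fabp7a, glula and acadm, with adjusted p of 0.0615 to 0.237. Over all 40 lists together, 494 different genes were tested, of which 60 rose (12.1%) and 67 fell (13.6%).

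Most called probe sets, 1386 of 1824, had no gene name here. The largest rise among them with both means over the filter level was that of Dr.24899.1.A1_at, with values of 1.43, 0.78 and 0.52 at 36 hpf and 5.50, 6.47 and 5.97 at 48 hpf (log2 difference 5.07 ± 0.28 SE, adjusted p = 5.29e-09). It was followed by Dr.24487.1.A1_at, with a difference of 2.80 ± 0.17 (adjusted p = 1.81e-08). The largest fall was that of Dr.20010.14.S1_at, from 8.09, 8.42 and 8.45 to 4.73, 4.04 and 3.86 (-4.11 ± 0.51, adjusted p = 4.47e-05), followed by Dr.24219.5.S1_at (-3.91 ± 0.40, adjusted p = 5.52e-06). All 4 were chosen so that the arrays of the times did not overlap, so this separation is no result. Still larger differences had a group mean under the filter level, among them rises of Dr.26538.1.A1_at by 6.71 (adjusted p = 0.0344, groups overlapping) and Dr.4697.1.S1_at by 6.51 (adjusted p = 2.08e-05), and falls of Dr.15107.1.A1_at by 4.82 (adjusted p = 6.56e-04) and Dr.20953.1.S1_at by 4.47 (adjusted p = 2.48e-04).

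The control embryos showed many of the same changes over these 12 hours. The comparisons share no array, but same-numbered control and morphant arrays of one time deviated together (correlations of 0.10 to 0.27 in the 6 pairs), so they are not independent. In controls 2625 probe sets changed (22.6% of those tested), 1280 higher (11%) and 1345 lower (11.6%). Of the 1824 that changed in morphants, 1126 were also called in controls, all in the same direction; these make up 61.7% of the morphant calls and 42.9% of the control calls. By sign alone, 1774 of the 1824 (97.3%) went the same way in controls, against 75.6% of all probe sets tested, and 50 went the other way. Across the 11626 probe sets the changes correlated with r = 0.70, a description only, since probe sets of one array share its hybridisation and are not replicates. The morphants had a median absolute difference of 0.39 over all probe sets and the controls 0.45.

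**Figure D3:**
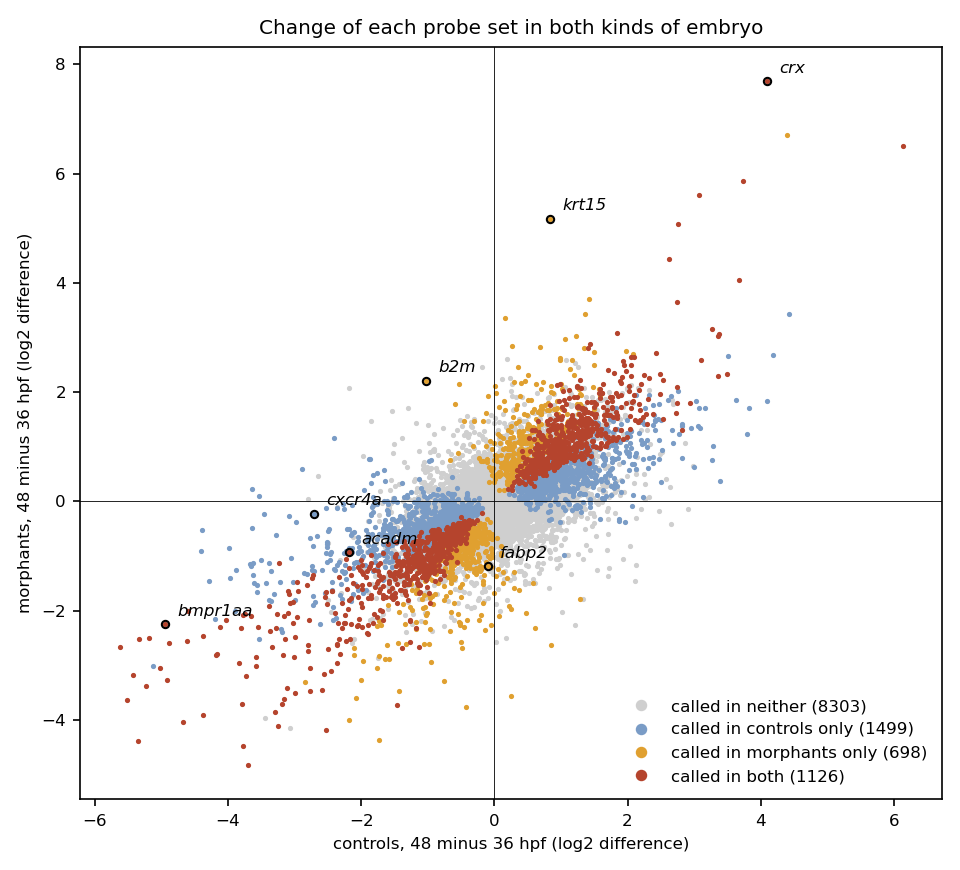
Change of each of the 11626 tested probe sets between 36 and 48 hpf in controls (horizontal axis, log2) and in morphants (vertical axis, log2), coloured by the comparison in which it was called; 7 named genes are circled. The 1126 probe sets called in both lie in the upper right and the lower left, and krt15 lies high in morphants near the middle of the control axis.

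Whether a change differed between morphants and controls was tested directly, as the morphant change minus the control change. By limma 1 of 11626 probe sets passed (0.0086%), with 766 at an unadjusted p under 0.05. It was the one of krt15, whose control values were 2.55, 0.31 and 1.19 at 36 hpf and 2.06, 2.15 and 2.35 at 48 hpf. The control groups overlapped, with a change of 0.83 (adjusted p = 0.17), and the morphants started lower at 36 hpf and ended higher at 48 hpf than every control array of that time. The difference between the changes was 4.35 ± 0.61 (adjusted p = 0.012). Same-numbered control and morphant arrays of one time deviated together, and with each such pair as a block 3 probe sets passed, krt15 among them (adjusted p = 0.0156). The call of krt15 was lost without array 2 of the 36 hpf morphants (adjusted p = 0.0531), without array 3 of the 48 hpf morphants (0.0824), without array 1 (0.0627) or array 2 (0.0535) of the 48 hpf controls, and in a fit of the 12 arrays of these times alone (0.258). The values as deposited (0.591) and standard errors as weights (0.178) also gave no call. With the filter at the median krt15 was not tested. Leaving out array 2 of the 36 hpf controls raised the number that passed to 26, and leaving out array 3 of the 48 hpf controls to 6.

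**Figure D4:**
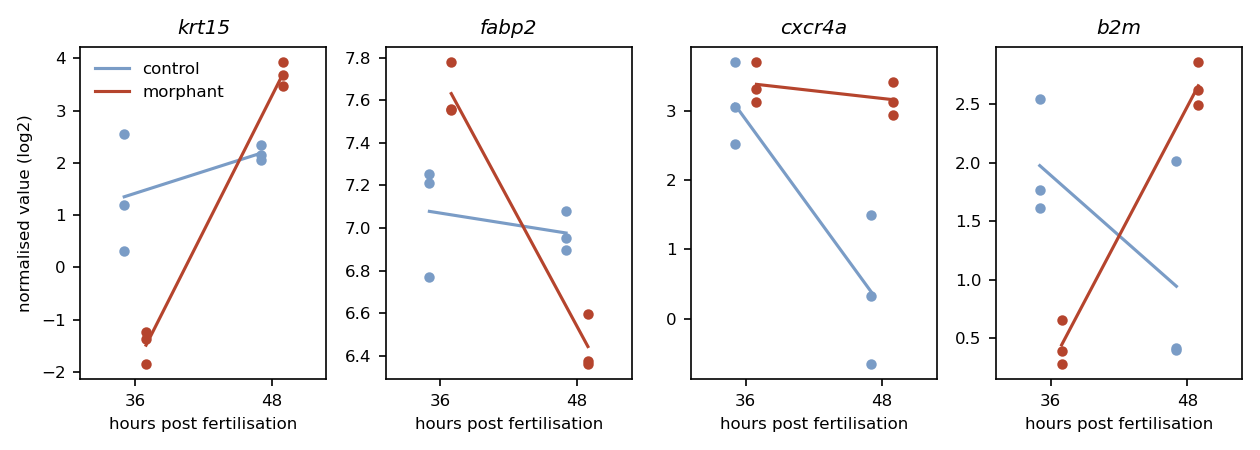
Normalised values (log2, vertical axis) of krt15, fabp2, b2m and cxcr4a at 36 and 48 hpf in control (blue) and morphant (red) embryos; each point is 1 array and lines join the means of 3. Of these genes only krt15 passed the test of the difference between the changes in the main fit.

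Other genes with unlike changes stayed short of the threshold in the main fit. For fabp2 the control values were 6.77, 7.21 and 7.25 at 36 hpf and 7.08, 6.9 and 6.95 at 48 hpf, overlapping, and the difference between the changes was -1.08 ± 0.19 (adjusted p = 0.0609). Among the alternatives it was called only with array weights (adjusted p = 0.0126) and without array 2 of the 36 hpf controls (0.0223). The chemokine receptor gene cxcr4a, known to be kept low by blood flow in zebrafish vessels, had morphant values of 3.32, 3.13 and 3.7 at 36 hpf and 3.12, 2.94 and 3.42 at 48 hpf and control values of 3.71, 2.52 and 3.06 at 36 hpf and -0.65, 0.32 and 1.49 at 48 hpf. Controls fell by 2.71 (adjusted p = 3.36e-04), morphants changed by -0.22 (adjusted p = 0.769), and the difference had an adjusted p of 0.307. Of all the alternatives, only the fit without array 3 of the 48 hpf controls called the difference of cxcr4a (adjusted p = 0.0334). For b2m the control values were 2.54, 1.77 and 1.61 at 36 hpf and 2.01, 0.40 and 0.42 at 48 hpf, with a change of -1.03 (adjusted p = 0.128), and the difference had an adjusted p of 0.183. An adjusted p of 0.0609 was also that of the unnamed Dr.24899.1.A1_at and Dr.24487.1.A1_at, which rose in controls too, by 2.76 and 1.4. Dr.24899.1.A1_at was called with median centring (adjusted p = 0.0334), array weights (0.0439) and pairs of one time as blocks (0.0156). Leaving out array 2 of the 36 hpf controls, or array 1 of either morphant group, also gave a call (0.0223 to 0.0371). Dr.24487.1.A1_at was called only with array weights (0.0126) and without array 2 of the 36 hpf controls (0.0125). For fgd the difference had an adjusted p of 0.246 in the main fit, with a control change of 0.25.

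The morphant arrays of 60 hpf show where these genes stood 12 hours later. Since the later interval starts from the same 48 hpf arrays, only levels are given for single genes. The count of calls at the end of this paragraph shares those arrays too. Means at 60 hpf were 4.81 for crx, 5.06 for vsx1, 5.47 for snap25b and 3.54 for krt15, beside 4.43, 5.22, 5.27 and 3.69 at 48 hpf. Those of pcna and her2 were 8.21 and 2.34, beside 8.11 and 2.29. Globin hbbe2 stood at 8.11 after 7.64, and ctslb, at its brightest probe set, at 6.19 after 9.18. From 48 to 60 hpf 111 probe sets were called in morphants (0.955% of those tested), 68 higher (0.585%) and 43 lower (0.37%).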

How the data were processed

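Per the deposited readme, the authors estimated expression from Affymetrix zebrafish arrays with the mmgMOS model of the puma package; neither its version nor the base of the logarithm is stated there. Deposited values range below 0 and were taken as log2, so folds rest on that base. The standard errors that the authors deposited beside the log2 values were used only as weights in an alternative. The deposited log2 values of the 18 arrays differed in median by 2.68, from 1.19 to 3.86, so 115 manufacturer control probe sets were dropped and the rest were quantile normalised over all arrays. Where such scaling removes a true shift common to all genes, that shift is lost.

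Gene names came from the deposited descriptions and identifiers, matched to RefSeq symbols. A probe set left without a name took that of its UniGene transcript cluster, where the named probe sets of the cluster shared a single name. Such probe sets are counted among those with a name, and their match to the gene was not tested. Of 15502 probe sets, 2948 had 1 name, 3 had several and were left unnamed, and 12551 had none; 48 descriptions, covering 67 probe sets, were turned into symbols by hand. Groups followed the titles of the samples. In R 4.3.3, limma 3.58.1 fitted the 6 group means to all 18 arrays (12 residual and 6.24 prior degrees of freedom), with an intensity trend in the empirical Bayes step and Benjamini-Hochberg adjustment over the 11626 probe sets whose mean was at or above the 25th percentile. The fitted comparisons were 48 minus 36 hpf in morphants, the same in controls, the difference between these, and 60 minus 48 hpf in morphants. Arrays have no read depth. Precision rests on 3 arrays per group, with a median SE of 0.28 for the morphant differences.

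Named genes were tnnt2a, the 15 called genes with the largest rise and the 15 with the largest fall whose 3 arrays of each time did not overlap and whose means both lay over the filter level, 5 each way with a mean under it, up to 6 called members of each gene list and up to 3 uncalled, genes that passed the test of the difference, 11 genes named whatever their values, and, of unnamed probe sets, the 2 largest rises and 2 largest falls. The 4 unnamed probe sets given first were limited to means over the filter level and to arrays that did not overlap between the times. The larger, dimmer ones were added. The genes of the 40 lists and the members of the comparison were chosen with earlier results of these data known. Beside the difference test, fabp2, cxcr4a, b2m and fgd were picked after their values were seen.

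Same-numbered morphant arrays of 36 and 48 hpf showed little common deviation (correlations of 0.044, -0.021 and -0.018). For control arrays of these times the values were -0.0089, 0.078 and 0.12. With 3 arrays a group these values cannot show whether the numbers pair arrays across times, and the main fit used no such pairs. Same-numbered control and morphant arrays of one time deviated together (0.10, 0.14 and 0.27 at 36 hpf, 0.18, 0.20 and 0.18 at 48 hpf), and the difference was refitted with these pairs. Alternatives were the values as deposited, median centring, fewer arrays, other filters, no trend, array weights, standard errors as weights, blocks and leaving out single arrays. The authors' tables of morphant against control comparisons were not used here, apart from their descriptions. The values of 1 gene of the retina list are not reported here.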

Additional observations from a re-analysis of the deposited data

Results flagged for a closer look

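The keratin gene krt15 stood out because its change from 36 to 48 hpf differed between morphants and controls, by a test of that difference itself. The morphant change exceeded the control change by 4.35 on the log2 scale (adjusted p = 0.012 by limma, 1 of 11626 probe sets). All 3 morphant arrays of 48 hpf lay above every morphant array of 36 hpf, while the control groups overlapped. The gene was also among those picked for morphant arrays that did not overlap, so that separation is no further result. Over the alternatives the difference ran from 3.15 to 4.88 and its adjusted p from 5.17e-04 to 0.591. Of the control arrays of 36 hpf, array 1, which stands apart from its group, had the highest krt15 value, and without it the difference was 3.74 (adjusted p = 0.00421).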

How the results depend on the processing

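The 1824 probe sets called between 36 and 48 hpf in morphants became 74 on the values as deposited, 3424 with the 6 morphant arrays alone and 3948 with array weights, which included all 1824. Other settings gave 1260 (median centring) to 2611 (without array 1 of the 36 hpf controls), and leaving out a morphant array gave 977 to 1337. With the replicate number as a block there were 2055, but whether the numbers pair these arrays is not known. The single probe set called for the difference between morphant and control change became 0 on the values as deposited, with the 12 arrays of these times alone, with the filter at the median and with standard errors as weights, 2 with median centring, 6 with array weights and 2 with the replicate block; with control and morphant arrays of one time paired it was 3, and leaving out 1 array gave 0 to 26. Genes on any list called higher went from 60 to 39 with median centring and 11 as deposited, and those called lower from 67 to 35 and 0. Of 129 called named genes, 89 stayed called in the same direction with median centring and 17 on the values as deposited. The ribosomal gene rpl13a, at -0.20, reversed to 0.20 on the values as deposited and 0.097 with median centring; probe sets brighter than 8 moved by a median of 0.22 under median centring against -0.015 under quantile normalisation. The cause of these shifts was not tested. Of the 1824 calls, 177 had a group mean under the filter level, where values vary most and no fold is given.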
